A study of Mus musculus with 16 samples.

Results

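Oxidative phosphorylation subunits were followed in mouse embryonic stem cells with and without Dgcr8, before and after the cells left the 2iL medium. The members were taken by gene name. They comprised every row whose identifier maps to a subunit or Ndufaf assembly symbol of complex I, to Sdha to Sdhd, to Uqcr, Cox4i, Cox5, Cox6, Cox7, Cox8 or Atp5 symbols, or to a protein gene of the mitochondrial genome. Of the 41202 gene identifiers of the table, 109 met this rule, 96 of them nuclear and 13 mitochondrially encoded (the mt- genes). Expression above a filter of 1 FPKM (fragments per kilobase of transcript and per mapped fragments, on a fixed scale) in 2 of the 8 libraries was found for 103 members, 90 nuclear and all 13 mt- genes. Cox4i1 is not analysed here.

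The 8 mRNA libraries form 4 groups of 2. The wild-type (WT) cells are called v65 and the Dgcr8-/- cells (KO) ES1 in the labels, which give both the strain 129/C57BL/6 and the same passage range. Each genotype was sampled in 2iL, a medium with MEK and GSK3 inhibitors and LIF, and after 48 h in N2B27+bFGF+KSR. Dgcr8 is the RNA-binding partner of Drosha in microRNA processing. With 1 line per genotype, a difference between genotypes cannot be told apart from a difference between lines, and the labels do not say whether the 2 libraries of a group came from separate cultures, so p-values measure the spread between these libraries.

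The respiratory chain passes electrons from NADH (complex I) and succinate (complex II) through complex III and cytochrome c to oxygen at complex IV, and the proton gradient built on the way drives ATP synthase (complex V). Its subunits come from both genomes. The mt- genes encode the membrane cores of complexes I, III, IV and V, and the remaining subunits, all of complex II among them, are nuclear genes translated in the cytosol. Naive mouse stem cells are known for active respiration, and cells of the primed state for a greater reliance on glycolysis.

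Levels of pluripotency markers differed with the medium and with the genotype. The summed level of 5 naive pluripotency markers was 673 to 767 FPKM in the 4 libraries in 2iL, 32.1 and 31.7 FPKM in WT at 48 h, and 240 and 232 FPKM in KO at 48 h. Of the KO sum at 48 h, Zfp42 held 119 and 114 FPKM. The sum of 5 formative markers went from 141 and 130 FPKM in WT 2iL to 925 and 903 in WT at 48 h. In KO the formative sum went from 81.3 and 74.6 to 310 and 303 FPKM. Sums for markers of other cells were at most 10 FPKM. The summed FPKM was 0.437 to 1.39 for primitive endoderm, 1.94 to 10 for fibroblasts and feeders, with Thy1 the 1 gene of that list to pass the filter, and 0.196 to 4.15 for muscle. Dgcr8 itself was lower in every KO library (7.80 to 9.33 FPKM) than in every WT library (18.3 to 20.9 FPKM). Summed over all genes, FPKM came to 533368 to 548369 in the WT libraries and 475200 to 511663 in the KO libraries. Sequencing depth is unknown for these values. Less RNA per cell and fewer cells of a type cannot be told apart in such bulk libraries.

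Promoter windows of 4 nuclear members are shown because these members bracket the results. Cox7a1 and Cox6b2, tissue-restricted complex IV isoforms, had the steepest falls at 48 h in WT. Cox6b1 is the widely expressed partner of Cox6b2, and Sdhd, a membrane anchor of complex II, had the largest genotype difference of its complex in 2iL. The windows are RefSeq sequences of GRCm38.p6, from 250 bases before to 50 bases after the annotated start, at chr7:30183921-30184220 on the plus strand (Cox7a1), chr7:4753045-4753344 on the minus strand (Cox6b2), chr7:30626065-30626364 on the minus strand (Cox6b1) and chr9:50603800-50604099 on the minus strand (Sdhd). Capitals mark exact matches, on either strand, to CCGGAAG (read by ETS factors such as GABP) or TCAAGGTCA (read by ESRRA and ESRRB).
Cox7a1: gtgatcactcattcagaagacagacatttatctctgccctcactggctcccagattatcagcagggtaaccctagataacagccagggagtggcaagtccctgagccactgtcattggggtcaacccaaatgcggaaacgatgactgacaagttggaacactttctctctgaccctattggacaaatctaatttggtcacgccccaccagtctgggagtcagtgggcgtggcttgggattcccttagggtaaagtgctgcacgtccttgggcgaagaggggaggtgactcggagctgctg
Cox6b2: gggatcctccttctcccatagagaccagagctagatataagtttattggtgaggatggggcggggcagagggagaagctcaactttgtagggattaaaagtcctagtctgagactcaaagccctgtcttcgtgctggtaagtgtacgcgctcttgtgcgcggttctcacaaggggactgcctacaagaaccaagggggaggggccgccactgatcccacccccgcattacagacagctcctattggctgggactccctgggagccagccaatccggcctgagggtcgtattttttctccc
Cox6b1: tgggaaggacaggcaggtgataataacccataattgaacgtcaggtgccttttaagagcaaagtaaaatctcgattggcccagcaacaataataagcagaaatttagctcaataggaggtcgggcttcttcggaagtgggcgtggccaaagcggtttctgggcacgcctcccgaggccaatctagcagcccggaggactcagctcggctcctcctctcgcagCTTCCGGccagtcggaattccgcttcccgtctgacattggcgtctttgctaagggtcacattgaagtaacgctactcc
Sdhd: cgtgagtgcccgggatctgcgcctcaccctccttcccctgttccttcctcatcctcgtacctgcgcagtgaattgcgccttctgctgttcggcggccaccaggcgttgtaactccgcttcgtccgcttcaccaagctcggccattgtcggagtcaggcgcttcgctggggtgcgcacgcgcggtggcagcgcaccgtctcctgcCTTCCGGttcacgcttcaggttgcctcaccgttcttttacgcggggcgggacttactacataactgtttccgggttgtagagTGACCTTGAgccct

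A window was available for 76 of the 96 nuclear members and for 27025 genes in all, with any of a gene's windows counted. The ETS letters CCGGAAG stood in the windows of 18 members (23.68%) and of 9.93% of all genes. GCGCATGC, read by NRF1, a known activator of respiratory genes, stood in 12 members (15.79%) and 3.05% of all genes. ATGGCGGC, read by YY1, stood in 7 members (9.21%) and 2.60% of all genes, and TCAAGGTCA in 2 members, Atp5g3 and Sdhd (2.63%), and 0.47% of all genes. Both strands were searched, and a match to one of these motifs may overlap a match to another. None of the 4 stood in the windows of Cox7a1 or Cox6b2. A match describes the letters of the window and is not a measured binding site.

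Most subunit genes were strongly expressed, at a median of 111 FPKM over the 90 nuclear members that passed, averaged over the 8 libraries. Among nuclear genes, Atp5b, the catalytic beta subunit of ATP synthase, was highest at 1765 FPKM, and Atp5a1, its alpha partner, held 532 FPKM. Cox6c (448 FPKM) led complex IV, Uqcr10 (425 FPKM) complex III, Ndufa7 (309 FPKM) the accessory subunits of complex I and Sdha (97.7 FPKM) complex II. The 8 Ndufaf assembly factors were lower, from 8.76 FPKM (Ndufaf7) to 31.4 FPKM (Ndufaf2). The 6 members that did not pass were the tissue-restricted isoforms Cox4i2, Cox6a2, Cox8b and Cox8c and the paralogs Ndufa11b and Ndufb4c, none above 1.02 FPKM in any library. Cox6c2, Ndufs6b and Ndufa4l2 passed at no more than 2.86 FPKM, and Cox6c2 and Ndufs6b resemble Cox6c and Ndufs6, so reads could be shared among such copies.

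Nuclear and mitochondrial subunit transcripts parted between genotypes and moved together in WT cells at 48 h. The 96 nuclear members summed to 17923 and 17975 FPKM in WT 2iL, 14853 and 14640 in WT at 48 h, 13791 and 15372 in KO 2iL, and 12760 and 12344 in KO at 48 h. The 13 mt- genes summed to 9122 and 8763 FPKM in WT 2iL, 7232 and 7374 in WT at 48 h, 10634 and 11028 in KO 2iL, and 9607 and 9981 in KO at 48 h. Both sums fell short of their 2iL values in every 48 h library of the same genotype. mt-Co1 was the largest part of the mt- sum in every library. In KO it went from 4718 and 5018 FPKM in 2iL to 3586 and 3734 at 48 h, a larger step than that of the sum. Of the 13 mt- genes in KO, 8 had a negative and 5 a positive log2 change, with a median of -0.05. In each condition both KO libraries were below both WT libraries in the nuclear sum and above them in the mt- sum.

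The ratio of the mt- sum to the nuclear sum needs no scaling between libraries. It was 0.509 and 0.488 in WT 2iL and 0.487 and 0.504 in WT at 48 h, against 0.771 and 0.717 in KO 2iL and 0.753 and 0.809 in KO at 48 h. All 4 KO libraries lay above all 4 WT libraries, and the conditions overlapped within each genotype. On the log2 scale the summed mt- level was 0.28 higher and the summed nuclear level 0.30 lower in KO in 2iL, with pooled replicate SDs of 0.0352 and 0.0584. At 48 h the differences were 0.42 and -0.23. Scaling to equal totals without the mt- genes changed them to 0.44 and -0.14 in 2iL and to 0.60 and -0.06 at 48 h. An exact permutation test of 2 against 2 libraries cannot go below p = 0.333, so no p is given for these sums.

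**Figure D1:**
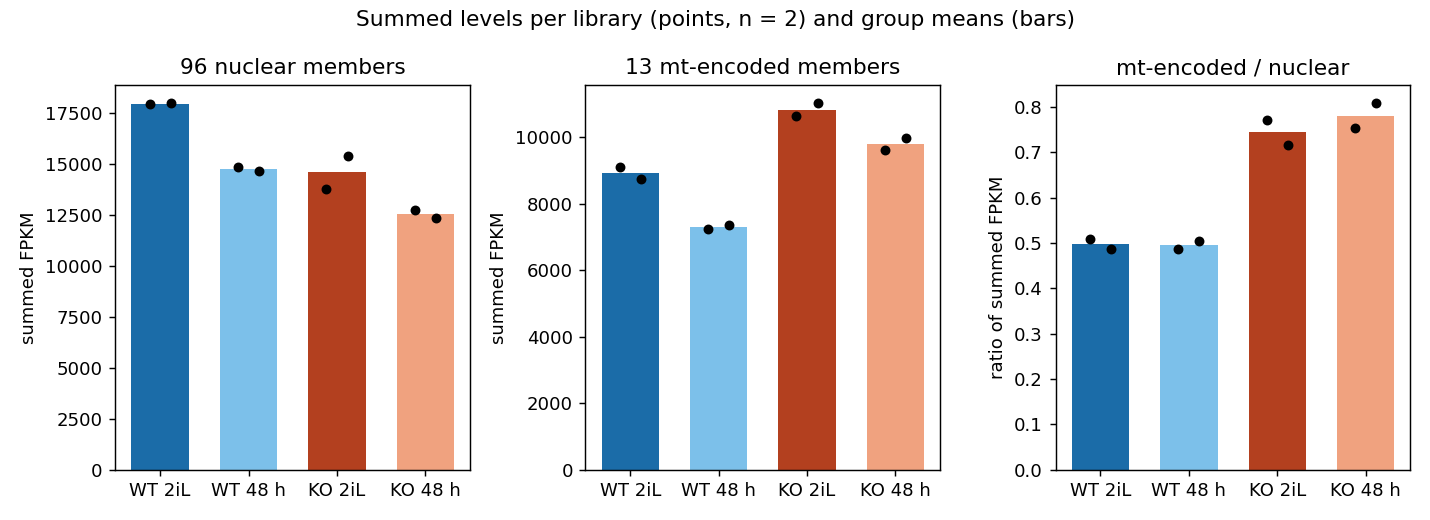
Summed FPKM of the 96 nuclear members (left), summed FPKM of the 13 mt- genes (middle) and the ratio of both sums (right) for WT and KO in 2iL and at 48 h. Bars are means of 2 libraries and points the libraries; the ratio lies between 0.487 and 0.509 in WT and between 0.717 and 0.809 in KO.

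When WT cells left 2iL, most nuclear subunit genes fell by a modest amount. Each gene was tested with limma on log2(FPKM + 1), with Benjamini-Hochberg adjustment over the 13166 genes that passed the filter and a threshold of 0.05; on this scale changes of low genes are understated. Of the 90 nuclear members 52 fell and 5 rose, or 57.8% and 5.56%, beside 25.6% of all genes tested that fell and 30.9% that rose (56.5% in either direction). The median log2 change was -0.27 for nuclear members and 0.03 for all genes tested. Of the 1682 genes with a mean of at least 50 FPKM, a background chosen after seeing the data, 34.5% fell and 21.4% rose. The 5 that rose were Cox6c2, which passed the filter only through its 48 h libraries, Atp5s, Ndufaf3, Ndufa2 and Ndufaf7. Falls were called for all 4 complex II genes, 6 of 8 complex III, 11 of 16 complex IV, 14 of 17 complex V and 15 of 37 complex I subunit genes. Beside the 25.6% of all genes and 34.5% of genes above 50 FPKM that fell, the complex I subunits stood out the least. Of the 8 Ndufaf assembly factors, 2 fell and 2 rose, near the shares of all genes.

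Complex IV held the steepest falls. Cox7a1, the isoform of heart and skeletal muscle, went from 35.2 and 38.7 FPKM to 9.95 and 11.7 FPKM (log2 change -1.69, SE 0.09, limma adjusted p = 5.11e-06). Cox6b2, the isoform known from testis, went from 126 and 138 to 56.8 and 47.7 FPKM (log2 change -1.33, SE 0.10, limma adjusted p = 2.67e-05). Their libraries did not overlap between conditions. Among broadly expressed subunits, Cox5a fell from 427 and 430.1 to 243 and 253 FPKM and Cox6b1 from 504 and 479 to 309.7 and 312 FPKM. Cox7c (432 and 439, then 487 and 479 FPKM) and Cox7a2l, a factor of supercomplex assembly (75.1 and 73.8, then 74.7 and 69.3 FPKM), were not called. Muscle markers summed to 0.196 and 0.391 FPKM in WT 2iL and 4.15 and 4.12 at 48 h. At 48 h Myh6 (2.05 and 1.97 FPKM) and Actc1 (1.44 and 1.47 FPKM) were the largest parts. A link to the Cox7a1 values was not tested. Prm1, Prm2, Tnp1 and Acrv1, from a list of male germ cell genes, were listed at 0 in all 8 libraries. Ldhc, the remaining gene of that list, held 1.13 and 1.16 FPKM in WT 2iL, 2.68 and 1.96 in WT at 48 h, and 0.101 to 0.328 in the KO libraries; its part in the Cox6b2 values was not tested.

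Among complex I subunit genes the largest falls were in the accessory genes Ndufb4 and Ndufb5, of the membrane arm, and Ndufv3 (log2 change -0.72). Ndufb4 went from 19.0 and 18.5 to 9.09 and 8.93 FPKM (log2 change -0.98, limma adjusted p = 3.18e-05) and Ndufb5 from 145 and 146 to 84.1 and 88.9 FPKM (log2 change -0.74, limma adjusted p = 1.03e-05). Of the core subunits, Ndufv1, which binds NADH, Ndufv2 and Ndufs8 fell (log2 -0.40, -0.35 and -0.19), and Ndufs1 was not called (53.6 and 53.6, then 53.5 and 52.9 FPKM). Assembly factors were mixed: Ndufaf5 and Ndufaf1 fell (log2 -0.77 and -0.47) and Ndufaf3 and Ndufaf7 rose (0.33 and 0.30).

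All 4 genes of complex II fell. Their changes ran from log2 -0.21 (Sdha, the flavoprotein) to -0.49 (Sdhd), with Sdhd at 129.5 and 128 and then 89.4 and 93.2 FPKM. In complex III, Uqcr10 fell from 565 and 564 to 365 and 355 FPKM and the core protein gene Uqcrc1 from 237 and 235 to 172 and 178 FPKM, while Uqcrfs1, the Rieske iron-sulfur protein, was not called (95.5 and 92.2, then 84.2 and 88.6 FPKM). In ATP synthase Atp5b fell by a small step, from 1867 and 1835 to 1582 and 1643 FPKM (log2 -0.20, limma adjusted p = 0.0184), and this call was lost when any 1 of the 4 WT libraries was left out. The coupling factor gene Atp5s rose from 1.37 and 1.57 to 3.84 and 3.67 FPKM, at a low level (log2 0.94, limma adjusted p = 0.000224).

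Atp5g1, Atp5g2 and Atp5g3 encode the same mature c subunit of the ATP synthase rotor with different import signals. Atp5g1 and Atp5g3 fell in WT cells (log2 -0.56 and -0.38), and Atp5g2 was not called (268 and 253, then 278 and 299.5 FPKM). As a share of the summed FPKM of these genes, Atp5g2 made up 18.9% and 18.4% in WT 2iL, 24.6% and 26.9% in WT at 48 h, 24.8% and 26.2% in KO 2iL, and 31.3% and 32.3% in KO at 48 h. The summed FPKM of the 3 genes was 1416 and 1376 in WT 2iL and 747 and 698 in KO at 48 h, the highest and the lowest of the 4 groups.

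In KO cells the 48 h change had the same main direction, with fewer calls. Of 90 nuclear members 39 fell and 6 rose, or 43.3% and 6.67%, beside 21.9% and 26.5% of all genes tested (48.4% in either direction), with a median log2 change of -0.18 against 0.03. The number that fell dropped to 23 without KO 48 h replicate 2 and reached 50 without KO 2iL replicate 1, and it was 53 after median-ratio scaling. Cox7a1 again fell the most, from 45.5 and 48.4 to 17.0 and 18.8 FPKM (log2 change -1.34, SE 0.09, limma adjusted p = 2.56e-05). Next were Ndufv3 (log2 -0.81), Ndufb4 (-0.70) and Cox5a (-0.70), and 7 of 8 complex III genes fell.

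Few members rose at 48 h. Cox6c2 was listed at 0 in every 2iL library and reached 0.854 and 2.07 FPKM in WT and 0.803 and 2.35 FPKM in KO. It passed the filter only through its 48 h libraries, so its rise is a description, with no test, though the counts include it. Ndufaf7 rose in both genotypes (log2 0.30 in WT and 0.39 in KO), as did Atp5s, whose call in KO (0.33, limma adjusted p = 0.0368) was lost under median-ratio scaling. Cox7b2, another isoform known from testis, rose in KO from 3.63 and 3.27 to 4.56 and 6.23 FPKM and was not called in WT (0.754 and 0.946, then 0.545 and 0.561 FPKM).

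**Figure D2:**
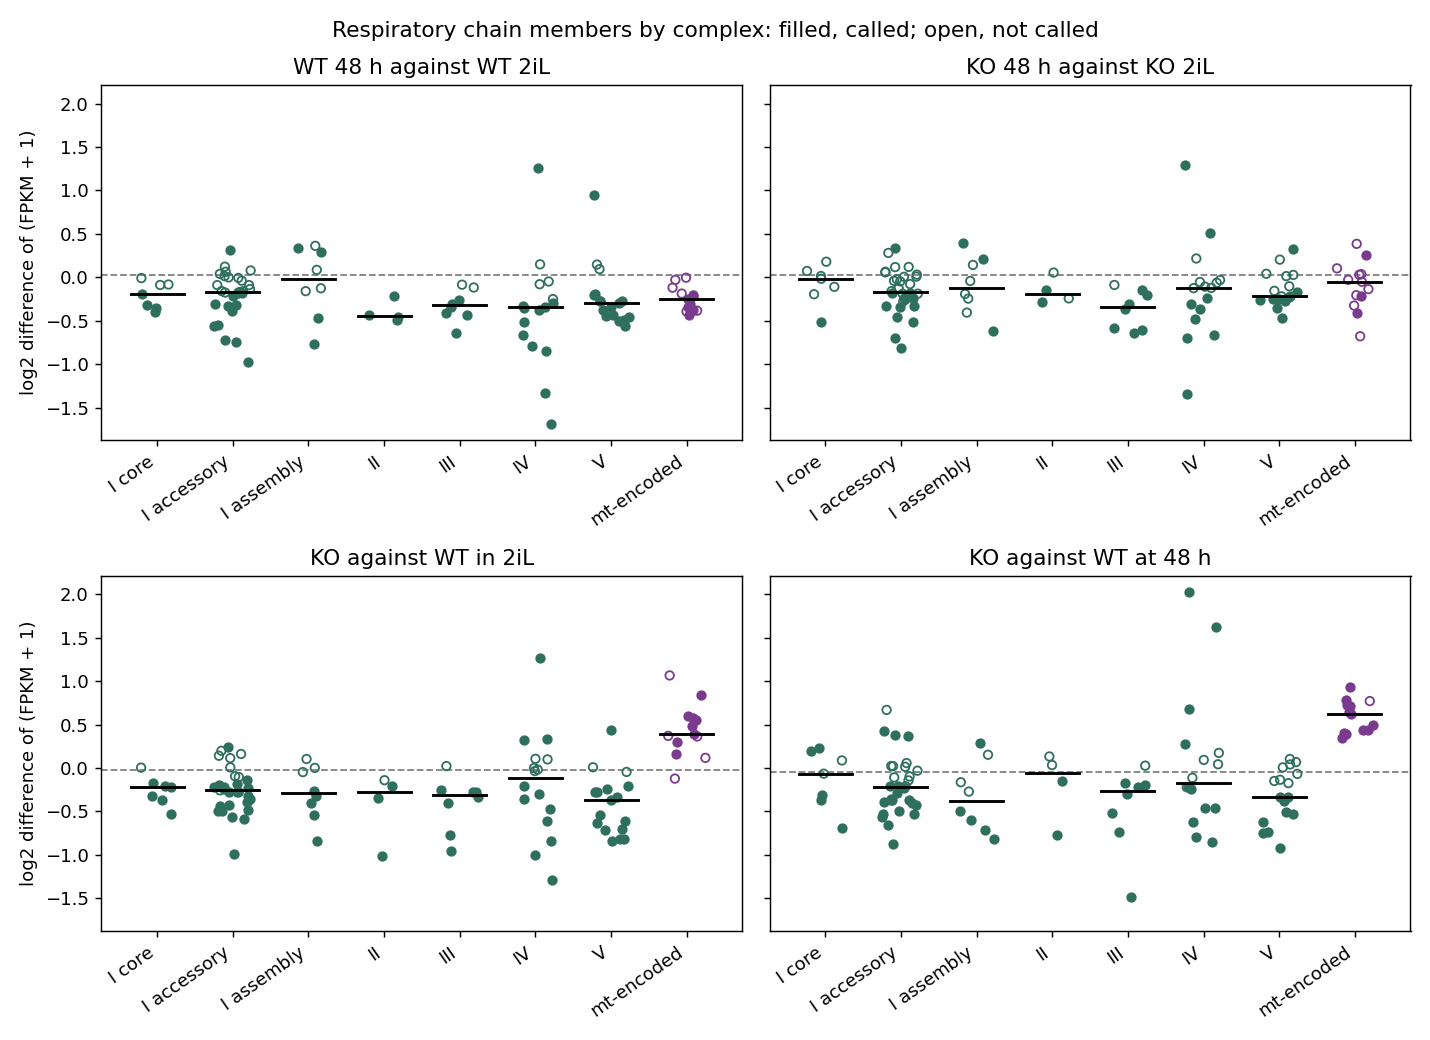
Log2 difference of (FPKM + 1) for each tested member by complex, in 4 comparisons; filled points were called by limma and open points were not, black bars are medians and the dashed line is the median of all 13166 genes tested. Nuclear complexes lie mostly below the dashed line in each panel, and the mt- genes, mt-Nd1 in 2iL aside, lie above it in both comparisons of KO with WT.

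Between genotypes, more nuclear members were lower in KO than higher, to an extent that hung on how libraries were scaled. In 2iL 63 of 90 were lower and 5 higher in KO (70.0% and 5.56%), beside 32.8% and 30.6% of all genes tested (63.4% in either direction), and 59.4% and 16.7% of the 1682 genes above 50 FPKM. At 48 h 49 were lower and 10 higher (54.4% and 11.1%), beside 38.5% and 33.4% of all genes (71.8% in either direction) and 54.6% and 26.8% of the genes above 50 FPKM. The share called lower at 48 h was thus close to that of the genes above 50 FPKM, a set that includes the members at that level. The 5 higher in 2iL were Cox7b2, which passed the filter only through its KO libraries, Atp5s, Ndufa3, Cox7a1 and Cox6b2. The medians were log2 -0.28 and -0.22 for nuclear members, -0.02 and -0.05 for all genes, and -0.25 and -0.20 for the genes above 50 FPKM.

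The KO libraries had lower FPKM totals, and scaling moved the split. In 2iL the members higher and lower in KO numbered 10 and 56 after median-ratio scaling, 15 and 44 after scaling to equal totals, 16 and 43 with the mt- genes left out of those totals, and 15 and 37 after quantile scaling. At 48 h they numbered 18 and 44, 25 and 37, 27 and 35, and 25 and 39 in the same order. The median of all genes shifted from -0.02 to 0.10 in 2iL and from -0.05 to 0.10 at 48 h with equal totals without the mt- genes, where the median of nuclear members was -0.12 and -0.04. After median-ratio scaling the medians were -0.21 for nuclear members and 0.02 for all genes in 2iL, and -0.16 and 0.004 at 48 h. After quantile scaling they were -0.08 and -0.04, then -0.10 and -0.05. The shares of all genes called under each scaling are not given here, so these counts have no background beside them. With the same limit, lower calls held under all of these scalings for 34 of the 63 members in 2iL and 33 of the 49 at 48 h. The members described next are among them unless another value is given.

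The largest lower levels in KO came from several complexes. Uqcrq, a small subunit of complex III, held 253 and 262 FPKM in WT and 120.2 and 146 FPKM in KO in 2iL (log2 difference -0.96, SE 0.08, limma adjusted p = 5.56e-05). At 48 h it held 246 and 239.8 FPKM in WT and 88.0 and 84.6 FPKM in KO (log2 difference -1.48, SE 0.08, limma adjusted p = 4.18e-06). Its libraries did not overlap between genotypes. Uqcrb, another small subunit, was not called in 2iL (229.6 and 238 FPKM in WT and 225 and 251 FPKM in KO) and was called lower in KO at 48 h (log2 difference -0.20), with its sign turned under quantile scaling (0.03). The hinge protein gene Uqcrh was lower by a smaller amount (log2 -0.77 in 2iL and -0.73 at 48 h).

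In complex II, Sdhd had the largest difference in each condition. It held 129.5 and 128 FPKM in WT and 57.0 and 69.8 FPKM in KO in 2iL (log2 difference -1.02, limma adjusted p = 6.22e-05) and 89.4 and 93.2 against 55.2 and 51.1 FPKM at 48 h (-0.77, limma adjusted p = 0.000177). Sdhc, the other anchor, was called lower in 2iL (-0.35, lost under quantile scaling). Sdhb, the iron-sulfur subunit, was not called in either condition (-0.14 and 0.03). Sdha was called lower in both (-0.21 and -0.14), but under quantile scaling its sign turned to 0.02 in 2iL and 0.05 at 48 h.

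In complex I, Ndufb7 held 217 and 215 FPKM in WT 2iL and 102 and 115 FPKM in KO 2iL (log2 difference -0.99, limma adjusted p = 1.09e-05), and -0.87 was its log2 difference at 48 h. Ndufa7, the most abundant accessory subunit gene, had log2 differences of -0.56 and -0.65. The core genes Ndufs1 and Ndufv2 were lower in both conditions (log2 -0.37 and -0.37 for Ndufs1, -0.53 and -0.70 for Ndufv2). Ndufv1 was called lower in 2iL (-0.21) and higher at 48 h (0.20), and its 2iL sign turned under quantile scaling (to 0.01). Of the assembly factors, Ndufaf2, which acts late in assembly, was lower in both conditions (40.3 and 36.9 against 20.3 and 22.1 FPKM in 2iL, log2 -0.84; -0.71 at 48 h), and so was Ndufaf4 (-0.54 and -0.60).

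In ATP synthase the catalytic pair was not called in either condition while several rotor and membrane genes were lower. Atp5b held 1867 and 1835 FPKM in WT 2iL and 1778 and 1949.8 FPKM in KO 2iL, with log2 differences of 0.01 and, at 48 h, 0.10. Under equal totals Atp5b and Atp5a1 were called higher in KO, at 0.16 and 0.11 in 2iL, and at 48 h both were called higher under each of the 4 other scalings, so their place relative to WT hung on the scaling. Atp5g3 held 686 and 684 FPKM in WT 2iL and 378 and 389 FPKM in KO 2iL (log2 difference -0.84, SE 0.04, limma adjusted p = 5.52e-06), and 539 and 515 against 283 and 272 FPKM at 48 h (-0.92). Atp5k (subunit e) and Atp5j2 (subunit f), of the membrane sector, and Atp5d, of the rotor's central stalk, were lower too, with log2 differences of -0.81, -0.82 and -0.72 in 2iL and -0.75, -0.62 and -0.74 at 48 h.

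Complex IV genes differed in both directions. Cox7b held 199 and 201 FPKM in WT 2iL and 95.2 and 104 FPKM in KO 2iL (log2 difference -1.0, limma adjusted p = 5.08e-06) and -0.79 was its log2 difference at 48 h. Cox7a2l (log2 -0.83 in 2iL and -0.85 at 48 h) and Cox7a2 (-0.61 and -0.62) were lower in both conditions. Not all broadly expressed genes were lower: Cox6b1 was not called in either condition, and Ndufa4 was higher in KO at 48 h (298 and 295 FPKM in WT, 371 and 349 in KO, log2 difference 0.28). Of the tissue-restricted isoforms, Cox6a2, under the filter, was listed at 0 in every KO library and held 0.119 to 1.02 FPKM in WT. Cox7b2 was low in WT (0.754 and 0.946 FPKM in 2iL, 0.545 and 0.561 at 48 h) and higher in KO (3.63 and 3.27 FPKM in 2iL, 4.56 and 6.23 at 48 h). It passed the filter only through its KO libraries, so its difference between genotypes is a description, with no test, though the counts include it. Cox7a1 was higher in KO by 0.34 in 2iL, a call lost without WT 2iL replicate 1 or KO 2iL replicate 2, and by 0.68 at 48 h. Cox6b2, far more abundant, was higher in KO by 0.33 in 2iL, a call lost without the same libraries, and at 48 h it held 56.8 and 47.7 FPKM in WT and 162 and 162 FPKM in KO (log2 difference 1.62, SE 0.10, limma adjusted p = 6.27e-06).

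Cox7a1 and Cox6b2 were also set against their broadly expressed partners. Cox7a1 FPKM came to 17.0% and 18.0% of Cox7a2 FPKM in WT 2iL, 5.86% and 7.33% in WT at 48 h, 34.7% and 33.8% in KO 2iL, and 16.3% and 17.3% in KO at 48 h. Cox6b2 FPKM came to 25.1% and 28.8% of Cox6b1 FPKM in WT 2iL, 18.3% and 15.3% in WT at 48 h, 31.6% and 31.5% in KO 2iL, and 48.8% and 49.1% in KO at 48 h. In each condition both KO libraries exceeded both WT libraries for each pair. Ndufa4l2, known as a hypoxia-induced paralog of Ndufa4, was lower in KO in 2iL, at 1.67 and 1.68 FPKM in WT 2iL and 0 and 0.207 in KO 2iL. Ndufa4l2 passed the filter only through WT 2iL, so its differences from that group are a description, with no test, though the counts include it.

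**Figure D3:**
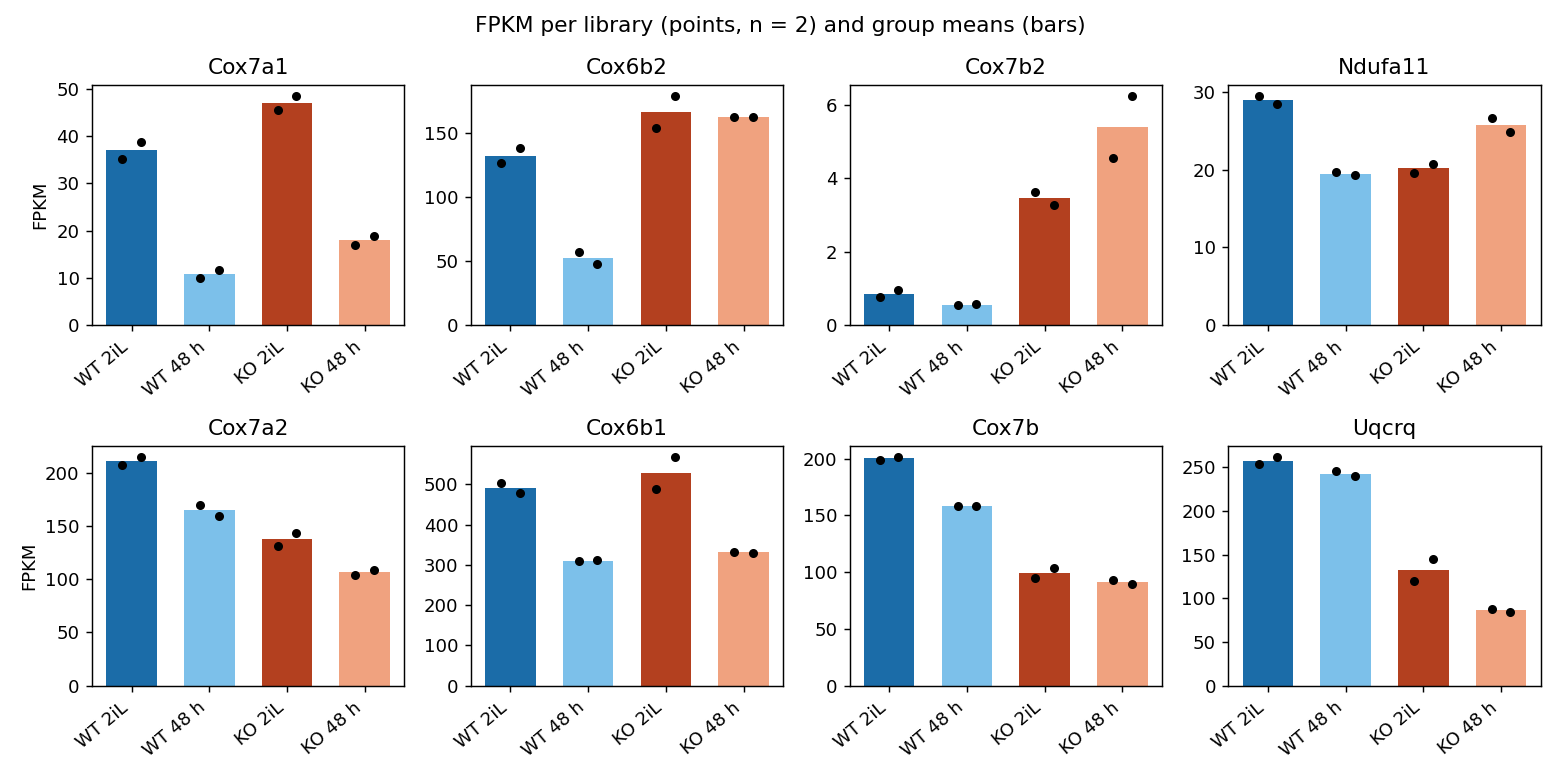
FPKM of 8 nuclear members in each group, with bars for the means of 2 libraries and points for the libraries; each panel has its own axis from 0. Cox7a1 and Cox6b1 are lower at 48 h in both genotypes, Cox6b2 is lower at 48 h in WT, and Cox7a2, Cox7b and Uqcrq are lower in both KO groups than in the WT group of the same condition.

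Most mt- genes were higher in KO, whichever of the scalings was used. In 2iL 8 of 13 (61.5%) were called higher and 0 lower, beside 30.6% of all genes called higher, with a median log2 difference of 0.39. At 48 h 12 (92.3%) were higher and 0 lower, beside 33.4% of all genes, with a median of 0.62. The counts after the 4 other scalings were 9 to 10 in 2iL and 11 to 12 at 48 h, again with 0 lower. At 48 h the uncalled gene was mt-Nd6. All 8 called in 2iL were called at 48 h as well, an overlap nearly fixed in advance by the 12 of 13 called at 48 h. The comparisons use different libraries of the same lines.

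The most abundant mt- transcripts came from mt-Co1, mt-Cytb and mt-Nd1. mt-Co1, the catalytic subunit of complex IV, held 3503 and 3439 FPKM in WT 2iL, 4718 and 5018 in KO 2iL, 2765 and 2829 in WT at 48 h and 3586 and 3734 in KO at 48 h, with log2 differences between genotypes of 0.49 and 0.39 (limma adjusted p = 0.000163 and 0.00039). mt-Cytb, the haem-carrying core of complex III, held 1844 and 1736, 1945 and 2050.4, 1503 and 1513 and 2012 and 2083 FPKM in the same order, with 0.16 in 2iL, a call kept in 9 of 20 alternative settings and lost in the replicate block fit, and 0.44 at 48 h. The KO libraries lay above the WT libraries of the same condition in both genes. mt-Nd1, of the membrane arm of complex I, was the 1 mt- gene below WT in 2iL by its estimate (1934 and 1830.2 in WT against 1679 and 1780.3 FPKM in KO, log2 -0.12, not called), and it was higher in KO at 48 h (0.34, limma adjusted p = 0.000599).

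The other complex I genes of the mitochondrial genome varied. mt-Nd5 was higher in KO in both conditions (log2 0.29 and 0.50) and so was mt-Nd4 (363 and 349 against 451 and 486 FPKM in 2iL, 0.39; 0.62 at 48 h). mt-Nd2 was not called in 2iL and was higher in KO at 48 h (644 and 654 FPKM in WT and 859 and 859.9 FPKM in KO, 0.41). mt-Nd6, the single protein gene read from the opposite strand, varied between replicates, at 35.1 and 59.1 FPKM in WT 2iL, 23.4 and 51.1 in WT at 48 h, 151 and 61.8 in KO 2iL and 48.2 and 74.3 in KO at 48 h. Its SE of 0.51 was far above that of the other mt- genes, and it was called in no comparison; at 48 h its WT and KO libraries overlapped. In human cells its mRNA is known to lack a stable poly(A) tail, and the libraries here are labelled polyA RNA; the part this plays was not tested.

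Levels were lower over a stretch of the mitochondrial genome. The 6 neighbouring genes from mt-Co2 to mt-Nd4l, at positions 7013 to 10173, averaged 7.86 to 98.2 FPKM, while the 6 genes outside it other than mt-Nd6 averaged 414 to 3699 FPKM. mt-Co2 held 37.7 and 37.3 FPKM in WT 2iL, whereas mt-Co1, its neighbour and a subunit of the same enzyme, held 3503 and 3439. RefSeq annotates on chromosome 1 a pseudogene, Gm10925, with mt-Atp6 among its synonyms, and close by it a second, Gm10222; the table gives them values of their own, 20.6 to 33.4 FPKM and 11.2 to 17.9 FPKM. Nuclear copies of this stretch are known in the mouse genome. How reads that match both places were assigned is not given in the sources used here, so the values of these 6 genes are uncertain. In the stretch, mt-Co2 was higher in KO by 0.56 and 0.72, mt-Co3 by 0.60 and 0.79, mt-Atp6 by 0.57 and 0.73, and mt-Nd4l by 0.84 and 0.64. mt-Atp8, which overlaps mt-Atp6, and mt-Nd3, the lowest of the 13, were called at 48 h only (0.94 and 0.44, the latter lost under quantile scaling). Outside the stretch 4 of 7 genes were called higher in KO in 2iL and 6 of 7 at 48 h, with medians of 0.29 and 0.44. The direction was thus the same outside the stretch, though how reads of these 7 genes were assigned is not given either.

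**Figure D4:**
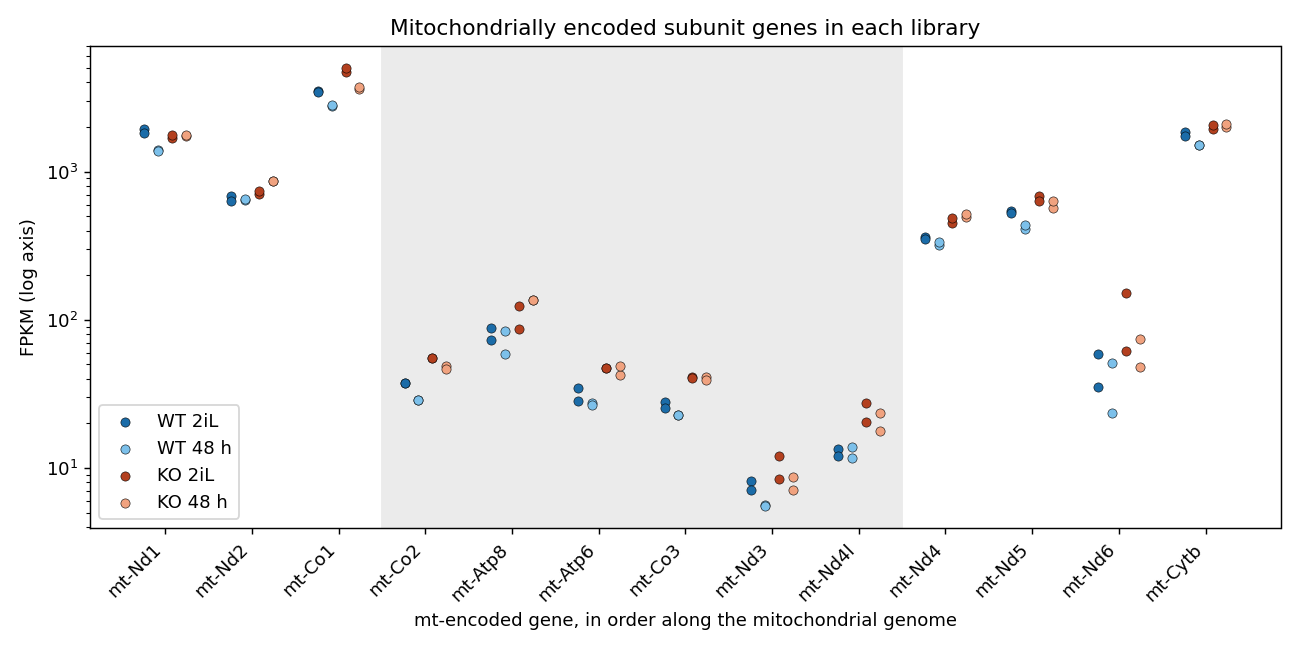
FPKM of the 13 mt- genes in each of the 8 libraries on a log axis, in their order along the mitochondrial genome; the grey band marks the 6 genes from mt-Co2 to mt-Nd4l. The genes in the band average 7.86 to 98.2 FPKM, those outside other than mt-Nd6 414 to 3699 FPKM, and the KO points sit above the WT points of the same condition for most genes.

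At 48 h several mt- genes fell in WT and fewer were called in KO, where fewer of all genes were called too (48.4% against 56.5%). In WT 6 of 13 fell (46.2%) and 0 rose, beside 25.6% of all genes tested that fell and 34.5% of those above 50 FPKM, with a median log2 change of -0.25 close to that of the nuclear members. The 6 were mt-Co1 (log2 -0.31), mt-Nd1 (-0.44), mt-Co2 (-0.37), mt-Nd5 (-0.34), mt-Cytb (-0.25) and mt-Co3 (-0.22). In KO mt-Co1 and mt-Co2 fell (-0.41 and -0.21), mt-Nd2 rose (0.26), and the other 10 were not called, with a median of -0.05 over all 13. The KO shares, 15.4% that fell and 7.69% that rose, were below the 21.9% and 26.5% of all genes tested.

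Whether the 48 h change differed between genotypes was tested as the interaction, the KO change minus the WT change. It was called for 18 of 90 nuclear members, 13 higher and 5 lower (14.4% and 5.56%), and for 4 mt- genes, all higher. Among all genes tested 42.9% were called, 21.1% higher and 21.7% lower, and among the genes above 50 FPKM 28.2% higher and 14.3% lower. The counts were unsteady: leaving out KO 2iL replicate 2 gave 31 higher nuclear members, leaving out KO 2iL replicate 1 gave 12 lower, and scaling to equal totals gave 26 higher and 10 lower. Ndufa4l2, at under 2 FPKM in every library, aside, the largest values were those of Cox6b2 and Ndufa11, and both held under every alternative run.

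Cox6b2 fell in WT and did not pass the test in KO, at 154 and 179 FPKM in 2iL and 162 and 162 FPKM at 48 h (log2 change -0.03, not called). The difference between these changes was 1.30 (SE 0.14, limma adjusted p = 0.000378). Ndufa11, an accessory subunit of the complex I membrane domain, was the single nuclear member with opposite calls: it fell from 29.5 and 28.4 to 19.7 and 19.3 FPKM in WT and rose from 19.6 and 20.8 to 26.7 and 24.8 FPKM in KO (interaction 0.88, SE 0.08, limma adjusted p = 0.000166). Its libraries did not overlap between conditions of a genotype or between genotypes in a condition, and its level in KO was the lower of the genotypes in 2iL and the higher at 48 h. Ndufb5 fell in both, with log2 changes of -0.74 in WT and -0.18 in KO (interaction 0.56, limma adjusted p = 0.000495). In the core of complex I, Ndufv1 fell in WT and was not called in KO (interaction 0.42).

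The 5 nuclear members with a lower value in KO were Ndufaf6 (-0.77), Atp5s (-0.61), Uqcrq, Ndufb11 and Ndufab1. Uqcrq, the most abundant of the first 3, was not called in WT (-0.09) and fell in KO (-0.61), a difference of -0.53 (SE 0.12, limma adjusted p = 0.00979) that held under every alternative run. Among mt- genes, mt-Nd1 fell in WT and was not called in KO, at 1679 and 1780.3 FPKM in 2iL and 1752 and 1777 FPKM at 48 h (interaction 0.47, limma adjusted p = 0.00193). The interaction calls for mt-Cytb, mt-Nd2 and mt-Nd4 (0.28, 0.29 and 0.22) were all lost without WT 2iL replicate 1. mt-Co1 fell in both genotypes, with -0.31 in WT and -0.41 in KO (interaction -0.10, SE 0.07, not called).

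**Figure D5:**
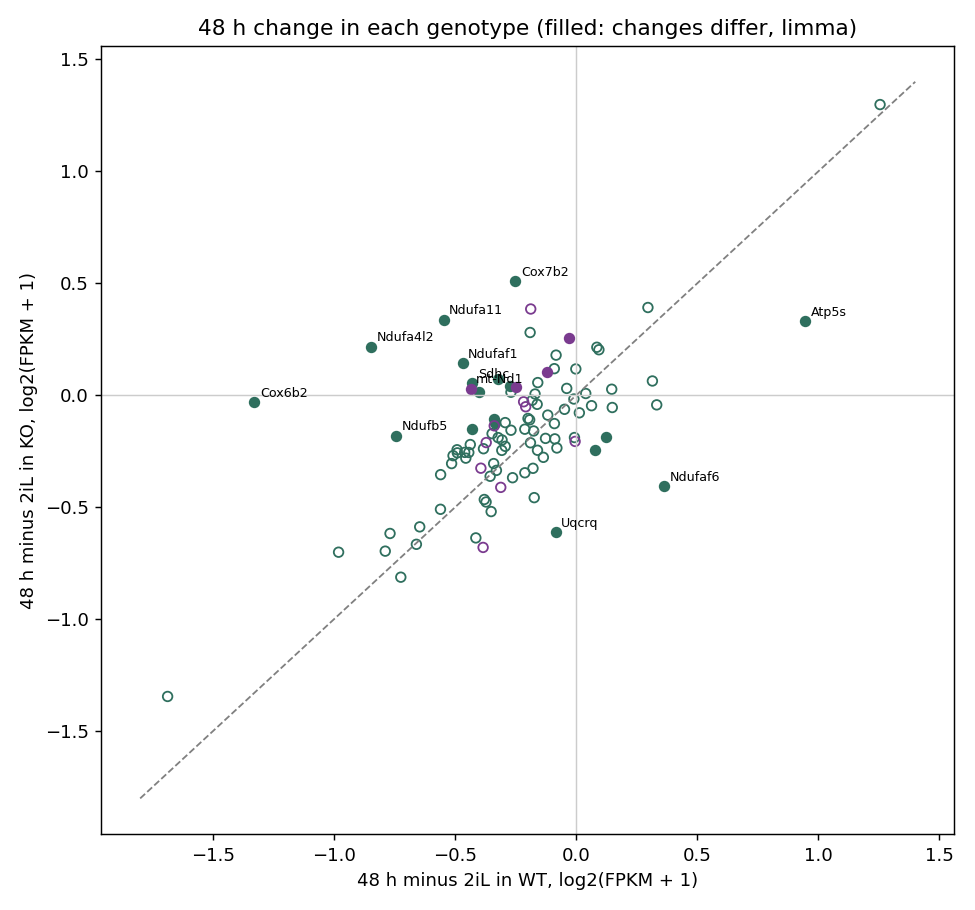
Log2 change of (FPKM + 1) from 2iL to 48 h in WT (horizontal) and KO (vertical) for each tested member, nuclear in green and mt- genes in purple; filled points have a called interaction, and those over 0.45 in size are named. Cox6b2 and Ndufa11 lie above the diagonal of equal change and Uqcrq and Ndufaf6 below it.

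Genes that build, feed or maintain the chain gave a varied picture between genotypes. The counts of each list stand against 32.8% of all genes tested called lower in KO and 30.6% called higher in 2iL, and 38.5% and 33.4% at 48 h. Of 9 genes for mitochondrial DNA replication, 8 were lower and 1, Dguok, higher in KO in 2iL, and 8 were lower and 0 higher at 48 h; under equal totals 6 were lower in each condition. Ssbp1, the single-stranded DNA-binding protein of the replisome, held 91.1 and 85.5 FPKM in WT 2iL and 49.4 and 56.2 in KO 2iL (log2 difference -0.73, limma adjusted p = 7.14e-05) and -0.86 was its log2 difference at 48 h. Top1mt, the mitochondrial topoisomerase, was lower as well (log2 -0.73 and -1.08). Of 18 tested genes of mitochondrial transcription and RNA handling, 10 were lower and 1 higher in 2iL, and 9 lower and 3 higher at 48 h. Tfam, which packages mitochondrial DNA and starts its transcription, held 46.8 and 44.96 FPKM in WT 2iL, 20.6 and 25.7 in KO 2iL, 61.1 and 53.3 in WT at 48 h and 24.2 and 25.9 in KO at 48 h (log2 differences -0.96 and -1.16, limma adjusted p = 0.000191 and 5.19e-05). The higher gene in 2iL was Grsf1, of mitochondrial RNA granules (74.9 and 66.8 FPKM in WT, 176 and 185 in KO, log2 difference 1.34). Most mt- transcripts were thus higher in KO while Tfam and Ssbp1 transcripts were lower; mitochondrial DNA itself was not measured here.

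Of 3 genes for cytochrome c, cytochrome c1 and their haem attachment, 3 were lower in 2iL and 2 at 48 h. Cycs, the electron carrier between complexes III and IV, and Cyc1, the cytochrome c1 subunit of complex III, differed by -0.40 and -0.55 in 2iL and by -0.49 and -0.49 at 48 h. Among assembly factors outside the Ndufaf genes, for complex IV 11 of 22 were lower and 2 higher in 2iL, and 9 lower and 3 higher at 48 h (8 and 3, then 6 and 5, under equal totals). At 48 h the share lower was close to the 38.5% of all genes. Cmc2 differed by -1.41 in 2iL and Coa6, a copper-delivery factor, by -0.99 at 48 h. For complex I 4 of 10 were lower and 2 higher in 2iL, and 6 lower and 2 higher at 48 h; under equal totals these became 3 and 4, then 5 and 4, so the balance in 2iL turned. They ran from Ecsit (-1.14 in 2iL) to Tmem126b (1.07 at 48 h), which work in the same early assembly complex. Counts for the factors of complexes II (2 of 4 lower, 0 higher), III (3 of 6 lower, 1 higher) and V (2 of 4 lower, 0 higher) in 2iL were small.

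Of 27 citrate cycle and pyruvate entry genes, 11 were higher and 7 lower in KO in 2iL, and 14 higher and 8 lower at 48 h (14 and 4, then 17 and 6, under equal totals). The 2iL counts were near the shares over all genes. Mpc1, a subunit of the mitochondrial pyruvate carrier, held 13.2 and 11.0 FPKM in WT 2iL, 38.9 and 39.1 in KO 2iL, 4.93 and 4.29 in WT at 48 h and 33.4 and 29.5 in KO at 48 h (log2 differences 1.62 and 2.53, limma adjusted p = 1.33e-05 and 9.39e-07). Idh2, the NADP-dependent isocitrate dehydrogenase, was higher by 0.78 and 1.68, and Pdp2, an activating phosphatase of pyruvate dehydrogenase, was lower at 48 h (-1.34). Of 8 tested genes for uncoupling and nucleotide exchange, 4 were lower and 1 higher in 2iL (4 and 4 under each of the other scalings), and 5 lower and 3 higher at 48 h. The ADP/ATP carrier Slc25a4 held 124 and 129 FPKM in WT 2iL and 48.8 and 55.3 in KO 2iL (log2 difference -1.27, limma adjusted p = 5.25e-06), with -1.70 at 48 h.

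Known regulators of respiratory genes were also followed. Of 11 tested, 7 were lower and 1 higher in KO in 2iL, and 7 lower and 3 higher at 48 h, against 4 and 2, then 4 and 4, under equal totals. Of all genes tested, 32.8% were lower and 30.6% higher in KO in 2iL, and 38.5% and 33.4% at 48 h. Nrf1 held 63.1 and 60.4 FPKM in WT 2iL and 42.4 and 46.8 in KO 2iL (log2 difference -0.46, limma adjusted p = 0.000242); its small difference at 48 h (-0.17) was lost under equal totals. Esrra was lower in both conditions (-0.45 and -0.56). Esrrb, an orphan receptor of naive cells that reads the same letters as Esrra, fell from 167 and 169.9 to 5.53 and 4.17 FPKM in WT and from 178 and 188 to 52.0 and 47.2 FPKM in KO. Gabpb2, a partner subunit of GABP, was higher in KO (0.63 and 0.72).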

How the data were processed

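The data are mRNA FPKM values of 8 libraries, 2 for each of 4 groups, as the authors deposited them in a single table. Per the labels' protocols, libraries were made with Illumina's dUTP method, which keeps strand, from Trizol-extracted RNA that the labels call polyA RNA. Per the submitters' processing notes, STAR 2.5.0 and Cufflinks 2.2.1 were used with mm10; the annotation, the strand setting and the treatment of reads with several matches are not given in the sources used here. FPKM gives no depth, so no counting interval can be had. The small RNA table was not used. Of 41258 rows, 56 repeated an identifier and were dropped, keeping the first; 40071 of 41202 identifiers had a symbol in the reference table.

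From these values the log2(FPKM + 1) was fitted with limma 3.58.1 in R 4.3.3, with 4 group means over all 8 libraries, an intensity trend and Benjamini-Hochberg adjustment over the 13166 genes that reached 1 FPKM in 2 or more of the libraries. An adjusted p under 0.05 was a call. The median SE was 0.0882, and 0.125 for the interaction. Replicates correlated at 0.9871 to 0.9907 over genes. The fit was run on simulated data with known changes in a small share of genes of a single group. That setting had far fewer changed genes than were called here and no difference in scaling between libraries. Sums and ratios of FPKM were taken per library. Promoter windows came from RefSeq. Alternatives covered the pseudocount, the filter on low values, 4 scalings, the trend, 2-group fits, a replicate block and leaving out each library. The members and gene lists were chosen with earlier results of these data known. Every member may be named; those given with values are up to 3 called members with the largest differences per role and direction, the extremes of level, core subunits, all mt- genes, tissue-restricted isoforms with their partners, and up to 2 called genes per direction from each of the other lists. Deviations of same-numbered libraries correlated weakly (from -0.153 to 0.18). With 2 libraries per group this cannot tell whether the numbers pair them, and the main fit used no block. For 1 member, single values are not reported here, and the counts include it.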

Additional observations from a re-analysis of the deposited data

Results flagged for a closer look

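The 48 h change differed between genotypes for 22 members, by the limma interaction test with Benjamini-Hochberg adjustment over all genes. The values of 21 of them are given, each being the log2 change in KO minus that in WT. The largest positive values were those of the complex IV genes Cox6b2 (1.30), Ndufa4l2 (1.06) and Cox7b2 (0.76) and of the complex I gene Ndufa11 (0.88). Ndufa4l2 and Cox7b2 passed the filter only through the groups where they were higher, so their values are a description, though the count includes them.

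Also positive in complex I were Ndufaf1 (0.61), Ndufb5 (0.56) and Ndufv1 (0.42). In the other nuclear complexes, positive values were found for Sdhc (0.48), Atp5f1 (0.31), Uqcrc1 (0.28), Cox6c (0.23) and Cox7b (0.21). Positive mt- genes were mt-Nd1 (0.47), mt-Nd2 (0.29), mt-Cytb (0.28) and mt-Nd4 (0.22).

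Negative values were found for the assembly factor gene Ndufaf6 (-0.77), for Atp5s (-0.61), for Uqcrq (-0.53) and for Ndufb11 (-0.32) and Ndufab1 (-0.31), the acyl carrier protein gene. Atp5s was expressed at under 4 FPKM.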

How the results depend on the processing

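Of 280 called member values, 173 kept their call under every alternative run, 107 lost it under at least 1, and 13 changed sign under at least 1. Under the 4 scalings nuclear members that fell at 48 h numbered 59, 56, 56 and 54 in WT (52 without scaling) and 53, 43, 43 and 47 in KO (39 without). Nuclear members called higher moved the most. In WT at 48 h they went from 5 to 3 with a mean of at least 5 FPKM, 9 with quantile scaling, 8 with 2 groups only and 2 to 7 when a library was left out. In KO at 48 h they went from 6 to 3, 10 with either total scaling, 3 with 2 groups only and 3 to 8; those lower ranged from 23 to 50 and mt- genes called went from 3 to 5 with quantile scaling. In 2iL members higher in KO went from 5 to 3 with a mean of at least 5 FPKM, 10 with median-ratio scaling, 15 and 16 with total scaling with and without the mt- genes, 15 with quantile scaling and 3 to 9 when a library was left out, and those lower went from 63 to 37 with quantile scaling. At 48 h those higher in KO went from 10 to 18, 25, 27 and 25 under the 4 scalings. For the interaction, nuclear members higher went from 13 to 26, 27 and 23 under total, mt-free total and quantile scaling and ranged from 9 to 31, those lower went from 5 to 10 under each of these and ranged from 1 to 12, and mt- genes called ranged from 1 to 4. Shares of all genes called under these alternatives are not given here. The cause was not tested.

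Some genotype differences changed sign with scaling (log2). In 2iL, equal totals gave Atp5a1 0.11, Cox7c 0.13 and Ndufb5 0.0086, totals without the mt- genes gave 0.12, 0.14 and 0.017, and quantile scaling gave Cox6a1 0.22, Ndufab1 0.076, Atp5f1 0.0096, Ndufb9 0.016, Ndufb5 0.11, Sdha 0.016, Ndufv1 0.0092 and Ndufs7 0.015. At 48 h, equal totals gave Atp5h 0.098, Sdha 0.019 and Ndufa10 0.13, totals without the mt- genes gave Atp5h 0.11, Sdha 0.029, Uqcrc2 2e-04 and Ndufa10 0.14, and quantile scaling gave Uqcr10 0.011, Cox7c 0.011, Uqcrb 0.027, Atp5h 0.13, Ndufs6 0.11, Atp5j 0.10, Ndufb9 0.13 and Sdha 0.048.

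With the replicate number as a block, members higher and lower and mt- genes called were 5, 51 and 6 in WT at 48 h, 5, 37 and 3 in KO at 48 h, 5, 59 and 7 in 2iL, 10, 49 and 12 at 48 h, and 12, 6 and 3 for the interaction. In 2iL the block ended the call for mt-Cytb. Crossing the numbers of WT at 48 h, a choice made after seeing the data, gave 6, 51 and 6, then 4, 39 and 4, then 5, 60 and 8, then 10, 49 and 12, then 11, 5 and 4. Depth is unknown for FPKM, so what it limits cannot be given.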
